A study of Mus musculus with 9 samples.

Results

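The contactins, the contactin-associated proteins, the L1 family and the neural cell adhesion molecule Ncam1 were examined as a set of 10 genes that place adhesion proteins on growing axons. The members were chosen by name for their role in neurite adhesion, and each of the 10 symbols was found at 1 of the 27095 loci in the table of gene levels. Earlier results of these data were known at that choice, and Cntn2 is named among the primers of the study. The set comprised the contactins Cntn1, Cntn2, Cntn4 and Cntn6, the contactin-associated proteins Cntnap1 and Cntnap2, the L1 family members L1cam, Nrcam and Chl1, and Ncam1. RNA had been sequenced from 9 wild-type C57BL/6 (C57BL/6J in the methods) mouse fetuses collected on gestational day 17 (GD17), with 3 fetuses in each group. Control fetuses came from dams injected with lactated Ringer's solution on gestational day 7, and the other dams received 2.9 g/kg ethanol (EtOH) intraperitoneally on that day. EtOH-exposed affected fetuses were those with ocular and craniofacial defects, and their EtOH-exposed unaffected counterparts lacked them, so these 2 groups were separated by phenotype and not by treatment. The methods of the study give the tissue as cortex, whereas the labels read fetal brain.

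Each locus carried 1 level per group in FPKM, that is, fragments scaled by transcript length and library size, which the authors' software had taken over the 3 animals. No spread between animals could be attached to any level, and no difference below was tested. A locus was counted as higher or lower when 2 group levels differed by at least 0.32 on the log2 scale, called the fold limit here, and the share of all 15447 loci with a mean level of at least 1 FPKM that did so is given with the counts of each comparison. In a bulk tissue, fewer cells of a type and less RNA per cell cannot be told apart. The depth of the libraries is unknown, since the levels carry no counts.

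Contactins are held to the outer face of the axonal membrane by a lipid anchor and carry immunoglobulin and fibronectin type III domains. The L1 family shares these domains but crosses the membrane, and its cytoplasmic tails bind ankyrins, which link adhesion to the spectrin skeleton. Contactin-associated proteins belong to the neurexin superfamily and pair with contactins, Cntn1 with Cntnap1 beside the node of Ranvier and Cntn2 with Cntnap2 at the neighbouring juxtaparanode. In the fetal cortex, well before myelin forms, these proteins are known for guiding, bundling and extending axons.

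The study designed primers for chromatin immunoprecipitation at the Cntn2 promoter, and the window upstream of this gene is shown first because it holds that amplicon. The window of L1cam, whose level moved most like that of Cntn2 within the set, and that of Cntnap2, which moved the other way, are set beside it. Each run is the 250 bases before the annotated start, 5′ to 3′ on the gene's strand, from RefSeq on GRCm38.p6, the assembly that mm10 names. Capitals mark the 2 primer sites in Cntn2 and the matches to GGGCGG or CCAAT, read on both strands, in the other genes.
Cntn2, chr1:132542941-132543190, minus strand: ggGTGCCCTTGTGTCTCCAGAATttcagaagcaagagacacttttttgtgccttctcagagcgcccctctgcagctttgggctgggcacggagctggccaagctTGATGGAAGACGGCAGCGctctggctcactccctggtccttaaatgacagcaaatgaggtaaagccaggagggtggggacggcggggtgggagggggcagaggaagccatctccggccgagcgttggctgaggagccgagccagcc
L1cam, chrX:73880835-73881084, minus strand: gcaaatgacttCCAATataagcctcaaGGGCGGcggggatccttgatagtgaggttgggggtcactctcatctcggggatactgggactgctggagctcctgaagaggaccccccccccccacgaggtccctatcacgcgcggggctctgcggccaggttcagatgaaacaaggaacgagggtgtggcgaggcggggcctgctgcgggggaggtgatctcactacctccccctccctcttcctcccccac
Cntnap2, chr6:45059811-45060060, plus strand: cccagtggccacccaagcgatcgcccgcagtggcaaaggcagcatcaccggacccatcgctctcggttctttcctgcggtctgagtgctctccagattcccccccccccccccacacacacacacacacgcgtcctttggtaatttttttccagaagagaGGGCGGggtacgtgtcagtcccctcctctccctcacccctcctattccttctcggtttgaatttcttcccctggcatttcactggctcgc

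The ChIP amplicon of Cntn2 spans bases 3 to 122 of its window, 120 bp at chr1:132543069-132543188, and the 5′ end of the Cntn2 locus at position 132543133 lies inside it. The primers of the study for Cntn2 mRNA, gataccagccgaagtccacat and gtctaagccagccactctcagg, both matched 4 of the 8 GENCODE transcripts of the gene and enclosed 258 bases. RefSeq windows were matched for 8 of the 10 members. For Cntn2 and Cntn4 the annotated start lies inside the locus, 193 bp and 441020 bp from its 5′ end, so these windows overlap the measured locus. GC content was 61.2% for Cntn2, 63.2% for L1cam and 59.6% for Cntnap2, and all 3 values lie above the median of 52.4% over 32817 windows. The windows hold 10, 12 and 13 CpG dinucleotides, respectively, where the median window holds 6. The motif GGGCGG, known as the GC box, occurred once in the windows of L1cam, Cntnap2 and Nrcam and in 32.7% of all windows. A CCAAT box was present in L1cam and Cntn1 and in 33.8% of all windows, with no overlap between the marked motifs. No match to TATAAA, which 12.4% of all windows hold, was found in the 3 windows shown. The same was true of TGACG, held by 17.7% of windows, and of the E-box CAGCTG, held by 13.0%. A missing match says only that these letters are not in the window.

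Levels in the control group spanned a wide range. Ncam1 was the most abundant member with 75.0 FPKM in control fetuses, followed by Chl1 with 65.6, Cntn2 with 54.4 and L1cam with 51.9. Cntnap2 and Nrcam stood at 34.4 and 32.7 FPKM, and Cntn1 at 14.5. Cntn6 and Cntn4 were low, with 3.09 and 1.62 FPKM, and Cntnap1 was at 0.269 FPKM. FPKM are scaled by length, so these levels may be compared between genes. The order changed little between groups. In unaffected fetuses it was the same as in control fetuses, and in affected fetuses Cntn2 passed Chl1, with 74.23 against 74.19 FPKM, and Nrcam passed Cntnap2. Without a spread between animals, it was not possible to say whether neighbours in this order differ.

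**Figure D1:**
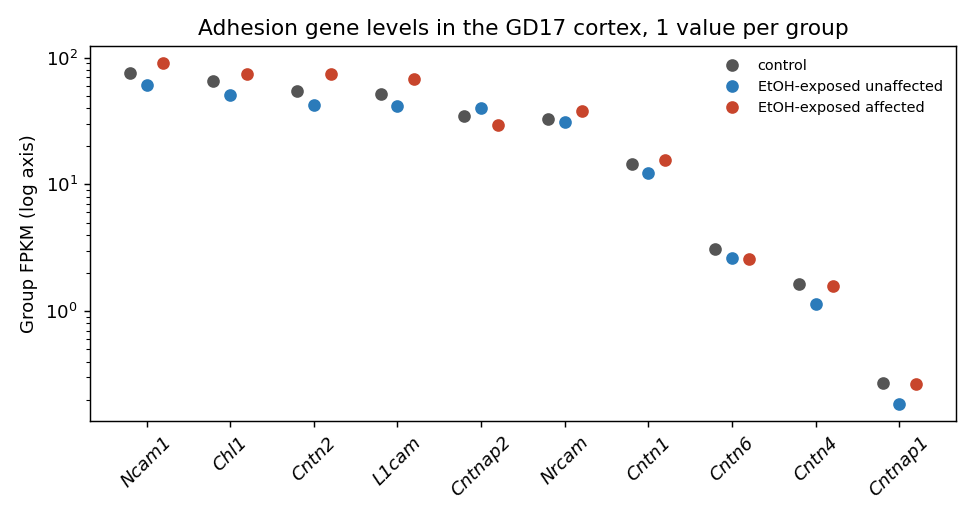
Group levels of the 10 adhesion genes in FPKM on a log axis, 1 point per group, with genes ordered by their control level. Affected fetuses have the highest point for 6 of the genes, and Cntnap2 is the member whose highest point belongs to unaffected fetuses.

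A total of 6 of the 9 members with a mean of at least 1 FPKM were highest in affected, intermediate in control and lowest in unaffected fetuses: Cntn1, Cntn2, L1cam, Nrcam, Ncam1 and Chl1. The same order was found at 32.3% of all 15447 loci. Cntnap2 had the reverse order, which held for 31.1% of all loci. The 10 members together reached 333 FPKM in the control group, 283 in the unaffected group and 395 in the affected group.

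The contactins were led by Cntn2, also called TAG-1, an axonal adhesion molecule of early-growing cortical axons. Cntn2 (chromosome 1, 132509425 to 132543133 of mm10, minus strand) had 54.4 FPKM in control, 42.4 in unaffected and 74.2 in affected fetuses. The affected level was 1.37-fold that of control and 1.75-fold that of unaffected fetuses, the largest difference between 2 groups within the set. On the log2 scale, Cntn2 differed from control by 0.45 in affected and by -0.36 in unaffected fetuses. Cntn1, a contactin of neurons and oligodendrocyte precursors on chromosome 15 (92051165 to 92341967), had 14.5, 12.3 and 15.6 FPKM in control, unaffected and affected fetuses. Its affected level was 1.27-fold the unaffected level, while both exposed groups lay within the fold limit of control. Cntn2 exceeded Cntn1 by a factor of 3.74 in control fetuses, 3.44 in the unaffected and 4.75 in the affected group.

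Cntn4 and Cntn6, contactins of restricted neuron populations, lie on chromosome 6, as does Chl1, and did not share its order of groups. Cntn4 (105677745 to 106699305) had 1.62 FPKM in control, 1.14 in unaffected and 1.57 in affected fetuses. Its unaffected level differed from control by -0.51 on the log2 scale, which became -0.29, inside the fold limit, with log2(FPKM + 1). Its affected level was 0.969-fold that of control. Cntn6 (104493044 to 104863405) had 3.09 FPKM in control fetuses and 2.60 in each exposed group. Both exposed groups differed from control by -0.25 on the log2 scale, which is within the fold limit, and the sign of its small difference between the exposed groups changed with the scaling.

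Of the contactin-associated proteins, Cntnap2 was the abundant one. Cntnap2, also called Caspr2, occupies 2241311 bp of chromosome 6 (45060061 to 47301371) and had 34.4 FPKM in control, 40.3 in unaffected and 29.4 in affected fetuses. Affected fetuses were the lowest group, at 0.728-fold the unaffected level (-0.46 on the log2 scale). With the groups rescaled to the same sum of FPKM, which moved the median of all loci by 0.31 in this comparison, the difference was -0.15, inside the fold limit. The log2 differences of Cntnap2 from control were -0.23 in affected and 0.23 in unaffected fetuses, and the latter became -0.11 under that rescaling, where the median of all loci moved by -0.34. Between Cntn2 and its partner Cntnap2, the ratio of levels came to 1.58 in control fetuses, 1.05 in the unaffected group and 2.53 in the affected group, a quantity that scaling of a whole group leaves unchanged. Cntnap1 (chromosome 11, 101176117 to 101190720), the partner of Cntn1 at the paranode, had 0.269, 0.186 and 0.266 FPKM in control, unaffected and affected fetuses and was not counted. Levels were given per locus, so isoforms of Cntnap2, for which GENCODE lists 6 transcripts, were not separated.

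Within the L1 family, L1cam, a receptor for axon growth and fasciculation, had the same order of groups as Cntn2. L1cam (chromosome X, 73853773 to 73880853) had 51.9 FPKM in control, 41.4 in unaffected and 68.4 in affected fetuses. The affected level was 1.32-fold that of control and 1.65-fold that of unaffected fetuses. The ratio of L1cam to Cntn2 stayed between 0.921 and 0.977 over the 3 groups. The unaffected level of L1cam differed from control by -0.33 on the log2 scale, just past the fold limit, and moved just inside it after rescaling to the upper quartile (-0.31) and with log2(FPKM + 1).

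Chl1, the close homolog of L1, acts in the positioning of cortical neurons and their apical dendrites. Chl1 (chromosome 6, 103510876 to 103733039) had 65.6 FPKM in control, 50.4 in unaffected and 74.2 in affected fetuses. Most of this difference lay on the unaffected side, with a log2 difference from control of -0.38 against 0.18 in affected fetuses. Nrcam (chromosome 12, 44328847 to 44605203), which joins ankyrin-based membrane complexes and the semaphorin receptor, had the smallest range of the family. Its levels were 32.7, 30.8 and 38.1 FPKM in control, unaffected and affected fetuses, and the affected level was 1.24-fold the unaffected level. That value lies just below the fold limit, and Cntn1 at 1.27-fold lies just above it.

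Ncam1, a homophilic adhesion molecule that carries polysialic acid in the developing brain, lies on chromosome 9 (49502146 to 49799069). Its levels were 75.0 FPKM in control, 61.1 in unaffected and 90.7 in affected fetuses. Affected fetuses were higher than control by 0.27 on the log2 scale and higher than unaffected fetuses by 0.57. An annotated antisense gene, Gm11149, shares exonic sequence with Ncam1, and no other member has exons in common with another gene in GENCODE. The methods name a TruSeq RNA kit that does not mark strand, so reads of the 2 genes at that overlap cannot be told apart.

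Counted together, 2 of 9 members were higher in affected than in control fetuses by the fold limit, Cntn2 and L1cam, where 12.5% of all loci were. Of the 9, 0 were lower by that much, where 11.5% of all loci were. At 1.5-fold the first count was 0, beside 3.48% of all loci. The median log2 difference of the members was 0.18, and that of all loci 0.02. In unaffected fetuses, 4 members were lower than control by the fold limit, Cntn2, Cntn4, L1cam and Chl1, where 6.99% of all loci were. This count was 2 with log2(FPKM + 1), beside 4.19% of all loci, and 0 at 1.5-fold, beside 3.03%. It was 8 after rescaling to the same sum of FPKM, which moved the median of all loci by -0.34 and made 52.6% of them lower. Of the members 0 were higher, where 5.54% of all loci were. The median was -0.30 for the members and 0.01 for all loci.

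Between the exposed groups, 6 of 9 members were higher in affected fetuses, namely Cntn1, Cntn2, Cntn4, L1cam, Ncam1 and Chl1, beside 20.7% of all loci. With log2(FPKM + 1) this count was 5, beside 16% of all loci, since Cntn4 at 0.26 fell inside the fold limit. Cntnap2 was the 1 member lower, beside 18.5% of all loci. At 1.5-fold, 2 members were higher and 0 lower, beside 7.17% and 5.10% of all loci. The median log2 difference was 0.46 over the members and 0.01 over all loci, and without Cntn2 the members' median was 0.40. After rescaling to the same sum of FPKM, the medians were 0.77 over the members and 0.32 over all loci, and 0 members were lower, beside 4.05% of all loci. The 3 comparisons use the same 3 groups in pairs, so their counts are not independent of each other.

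**Figure D2:**
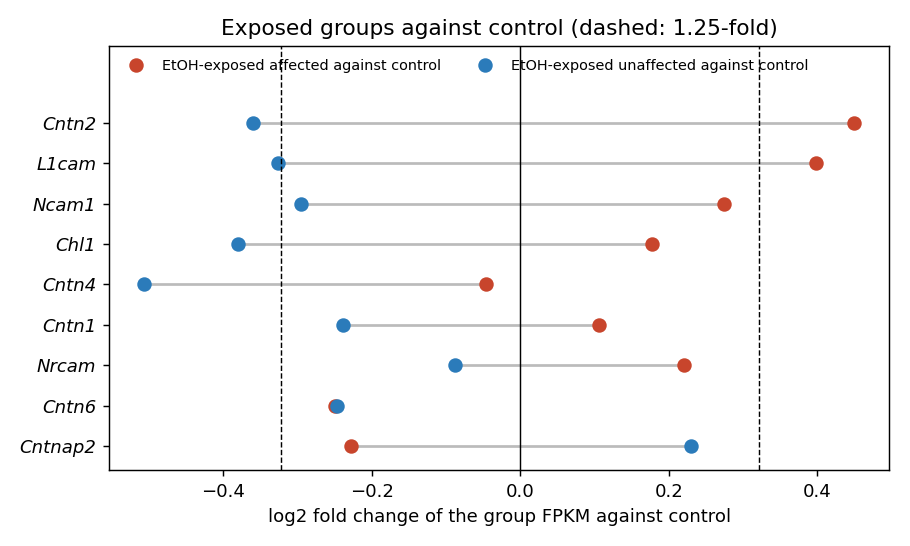
Log2 fold change of the group FPKM against control for the 9 members with a mean of at least 1 FPKM, in affected (red) and unaffected (blue) fetuses, joined by a line for each gene. Red points lie to the right of blue points for 7 genes, those of Cntn6 coincide, and those of Cntnap2 are exchanged.

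**Figure D3:**
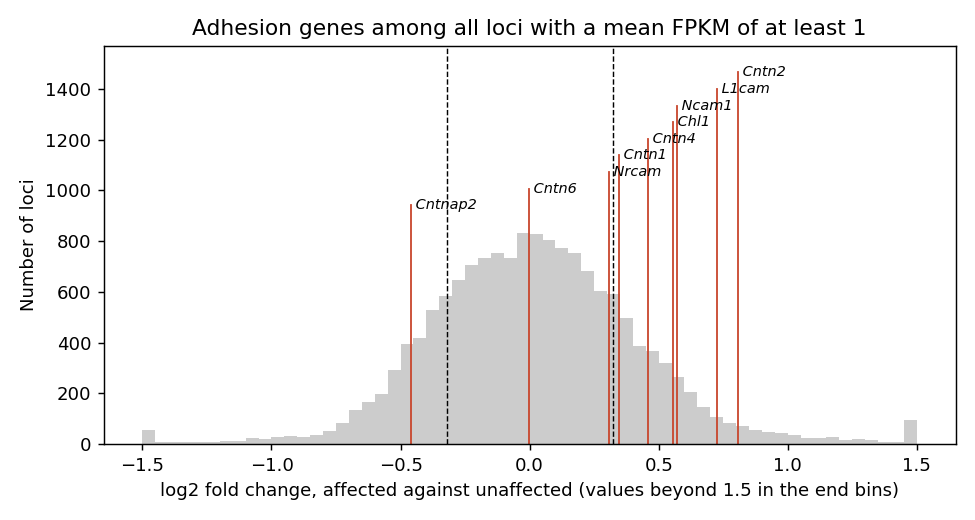
Number of loci by their log2 fold change between affected and unaffected fetuses, over 15447 loci, with the 9 members as red lines, whose height only spaces their names, and the fold limits dashed. Cntn2 lies at 0.81 and L1cam at 0.72, in the right tail, while Cntnap2 lies at -0.46 on the left side.

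Transcript length moved with these differences over the whole table. When 12475 named loci were divided into 5 bins by their longest GENCODE transcript, the median log2 difference between affected and unaffected fetuses ran from -0.31 in the shortest bin to 0.31 in the longest, which starts at 5370 nt. In the longest bin, 47.3% of loci were higher in affected than in unaffected fetuses by the fold limit and 2.53% lower, against 1.92% and 48.1% in the shortest. Adhesion genes have long transcripts, and 6 of the 9 members fall into the longest bin, with 4 higher and 1 lower. Cntn4 and L1cam, in the next bin, were both higher, where 21.6% of loci were. Against control, 24.0% of loci in the longest bin were higher in affected fetuses, with 1 of the 6 members, and 5.41% were lower in unaffected fetuses, with 2 of the 6. In the next bin, 9.14% were higher in affected fetuses, with L1cam, and 1.52% were lower in unaffected fetuses, with both Cntn4 and L1cam.

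Set against the median of the length bin, the members separated. For affected against unaffected fetuses, Nrcam and Cntn1 exceeded the median of their bin by 0.0034 and 0.040 on the log2 scale, and Cntn6 differed from that of its own by -0.0087. Chl1 and Ncam1 exceeded it by 0.25 and 0.27, Cntn4 by 0.35, Cntn2 by 0.50 and L1cam by 0.62. Cntn2 and L1cam lay at the percentiles 98.0 and 99.5 of their bins, and Cntnap2, whose longest transcript has 9827 nt, differed from the median of the longest bin by -0.76, at the percentile 1.00. For affected against control fetuses, L1cam and Cntn2 exceeded the median of their bins by 0.31 and 0.26, and Ncam1 and Nrcam by 0.08 and 0.03. The other members lay below it, Chl1 at -0.02, Cntn1 at -0.09, Cntn4 at -0.14, Cntn6 at -0.27 and Cntnap2 at -0.42. For unaffected against control fetuses, Cntnap2 and Nrcam differed from the median of their bin by 0.33 and 0.02. The remaining members ranged from -0.48 for Cntn4 to -0.14 for Cntn1, with Cntn2 at -0.26 and L1cam at -0.30. The part of transcript length or RNA quality in the group differences was not tested.

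**Figure D4:**
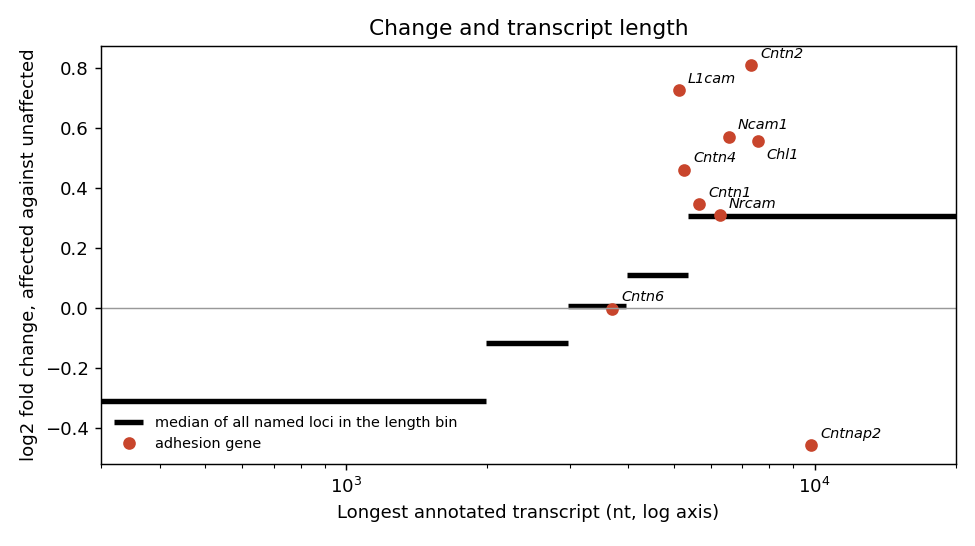
Log2 fold change between affected and unaffected fetuses against the longest annotated transcript (nt, log axis) for the 9 members, with the median of all named loci in each of 5 length bins as black bars, cut at the ends of the axis. Nrcam, Cntn1 and Cntn6 lie on or near the bars, Cntn2 and L1cam stand above them, and Cntnap2 stands below.

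The groups also differed in the sex of the fetuses. Xist, expressed from the inactive X chromosome, had 9.24 FPKM in control, 0.021 in unaffected and 10.3 in affected fetuses. The Y-linked gene Ddx3y had 2.66 FPKM in control, 8.40 in unaffected and 0.0091 in affected fetuses, and Kdm5d had 1.67, 5.45 and 0.0018. By these levels, female transcripts were at or near 0 in the unaffected group and male transcripts in the affected group, while the control group carried both. These levels differed between the groups of every comparison, so sex and group cannot be told apart in any of the 3, also for the X-linked L1cam.

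Markers of cell types were counted between affected and unaffected fetuses, where 20.7% of all loci were higher and 18.5% lower by the fold limit. Cortical projection neuron genes were present in every group, with summed levels of 689, 613 and 765 FPKM in control, unaffected and affected fetuses, and 5 of 7 were higher in affected than in unaffected fetuses by the fold limit. Of 8 general neuronal genes, 2 were higher and 1 lower, and their sums were 3886, 3884 and 3617 FPKM. Endothelial genes were higher at 4 of 6, with sums of 62.2, 62.1 and 66.4 FPKM. Erythroid loci were lower at 4 of 4, with sums of 456, 595 and 371 FPKM. Of 8 progenitor genes 1 was higher and 2 lower, of 7 ventral GABAergic genes 0 and 1, and of 7 microglial genes 1 and 3. Meningeal genes were higher at 0 and lower at 2 of 6, choroid plexus genes at 1 and 0 of 5, and thalamic genes at 1 and 0 of 3. None of the markers in these lists was at 0 in any group, and their part in the levels of the adhesion genes was not tested.

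Of the relatives outside the set, neurofascin was the most abundant. Nfasc, the fourth member of the L1 family, had 11.5 FPKM in control, 9.55 in unaffected and 16.0 in affected fetuses, with log2 differences from control of -0.27 and 0.47. The order of the groups was that of L1cam. Ncam2 stayed between 5.85 and 6.49 FPKM. The contactins Cntn3 and Cntn5 and the 4 contactin-associated genes with a mean of at least 1 FPKM were within the fold limit in all 3 comparisons, with Cntnap4 as the most abundant at 4.53 to 5.10 FPKM.

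These relatives and the ligands and binding partners of the members were taken from lists written from general knowledge, in which 51 of 55 genes had a mean of at least 1 FPKM. Of these, 15 were higher and 1 lower in affected than in control fetuses by the fold limit. In unaffected fetuses 0 were higher and 7 lower than control, and between the exposed groups 23 were higher in affected fetuses and 1 lower. Their median log2 differences were 0.17, -0.11 and 0.31 in these comparisons. Over all loci, the shares higher and lower were 12.5% and 11.5% in the first comparison and 5.54% and 6.99% in the second. Between the exposed groups they were 20.7% and 18.5%, and the counts of single lists below stand against this pair. In the bin of the longest transcripts, 47.3% of loci were higher and 2.53% lower between the exposed groups. The medians of that bin were 0.19, -0.10 and 0.31 in the 3 comparisons. The partners were not divided by transcript length, so its part in their counts was not tested.

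Among extracellular ligands, tenascin-C (Tnc), a matrix ligand of Cntn1, had 21.8 FPKM in control, 14.7 in unaffected and 29.9 in affected fetuses. Neurocan (Ncan), a proteoglycan that binds L1cam, Ncam1 and Cntn2, had 64.0, 52.0 and 81.5 FPKM. Both were highest in affected and lowest in unaffected fetuses, as were tenascin-R (Tnr) with 3.86, 2.76 and 4.83 FPKM and the receptor phosphatase Ptprz1, which binds Cntn1, with 41.9, 33.5 and 51.8. Pleiotrophin (Ptn), a soluble ligand of Ptprz1, had 218, 208 and 157 FPKM and was the 1 gene of the 12 in this list that was lower in affected than in unaffected fetuses by the fold limit, while 6 were higher.

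Of 12 co-receptors and signalling partners, 7 were higher and 0 lower in affected than in unaffected fetuses by the fold limit. Plxna1 and Plxna4, plexins of the semaphorin receptor in which L1cam and Nrcam take part, had 14.7, 12.4 and 20.0 FPKM and 12.5, 9.11 and 16.1 FPKM in control, unaffected and affected fetuses. The locus of neuropilin Nrp1, joined in the table with a microRNA gene, had 30.3, 23.9 and 36.9 FPKM. The kinase Src, which acts downstream of L1, differed by 0.37 on the log2 scale between affected and control fetuses. Fgfr2 had 8.40, 8.85 and 11.3 FPKM, with its lowest level in control fetuses.

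The ankyrins, which bind the tails of L1cam, Nrcam and Chl1, were higher in affected than in unaffected fetuses, Ank2 by 0.57 and Ank3 by 0.71 on the log2 scale. The spectrin Sptbn1, of the beta class that binds ankyrins, had 53.5 FPKM in control, 41.2 in unaffected and 54.6 in affected fetuses, and the alpha spectrin Sptan1 had 87.7, 72.1 and 109.9. Affected fetuses differed from control by 0.03 for Sptbn1 and by 0.33 for Sptan1 on the log2 scale. Ezrin (Ezr), which links L1cam to actin, was higher in affected than in control fetuses, with a log2 difference of 0.36, and Dcx, which binds neurofascin, with 0.34. Between the exposed groups Ezr differed by 0.31, inside the fold limit. Of the 11 genes in this list with a mean of at least 1 FPKM, 7 were higher and 0 lower in affected than in unaffected fetuses.

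Polysialic acid is added to Ncam1 by 2 enzymes. St8sia2 had 50.4 FPKM in control, 44.3 in unaffected and 67.2 in affected fetuses, an order shared with Ncam1 itself. St8sia4 had 15.6, 15.1 and 13.2 FPKM and stayed within the fold limit in all 3 comparisons. Of the 8 genes in the list of shedding and polysialylation enzymes, 2 were higher in affected than in unaffected fetuses by that limit, a share close to the 20.7% of all loci, and 0 lower. Beside St8sia2 this was Reln, an extracellular guide of neuron migration placed in the same list, which had 22.7, 19.9 and 31.8 FPKM.

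**Figure D5:**
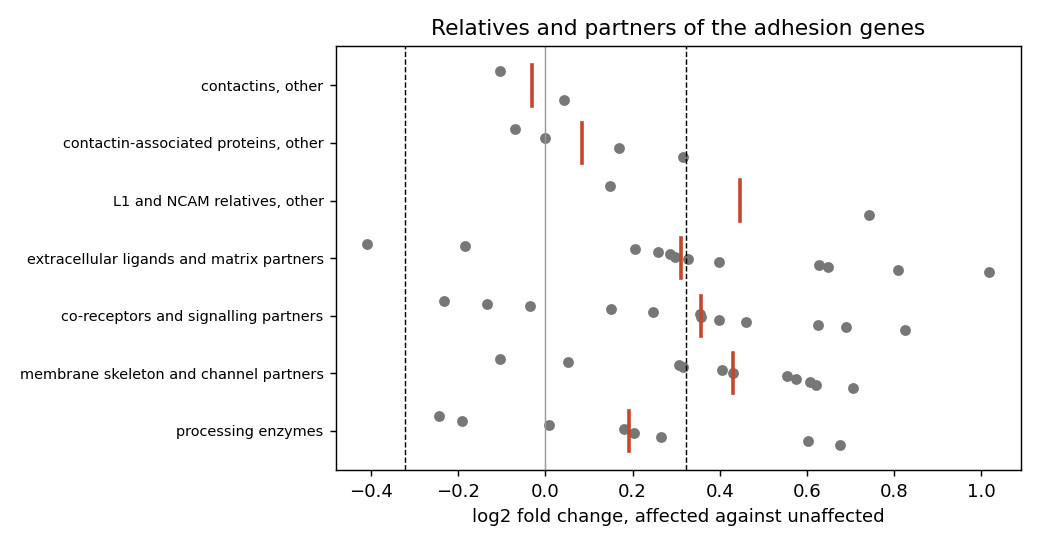
Log2 fold change between affected and unaffected fetuses for relatives and partners with a mean of at least 1 FPKM, 1 point per gene, in 7 lists, with the median of each list in red and the fold limits dashed. Of the 51 genes, 23 lie beyond the right limit and 1, Ptn, beyond the left.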

How the data were processed

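RNA from the GD17 cortex of 9 fetuses, 3 per group, was sequenced by the authors. Reads were aligned to mm10, where the methods name STAR as well as Bowtie with Tophat, and the submitters' processing notes name Bowtie2 2.2.4.0, Cufflinks and Cuffdiff. The deposited FPKM are 1 value per group and locus, made by the authors over the 3 animals. The deposited columns with the authors' fold changes, test statistics, p-values and q-values were not used. The design provided for a test only where values of single animals were used, so none was made.

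Fold changes are ratios of group FPKM, computed with Python 3.11.15, numpy 2.4.6 and pandas 2.3.3, over loci with a mean of at least 1 FPKM, a value above 0 in each group and no failed estimate (18 loci). Locus starts count from 0 in the table, as 9601 of 21097 equal the RefSeq start after adding 1 and 601 as written, and were raised by 1. Transcript lengths came from GENCODE M21 and were found for 99.2% of 12570 named loci. The ratio was run on simulated levels with known folds and no noise, which checks the arithmetic and not the spread between animals. Depth was not given in the sources used here. Named were all members, genes of the pathway lists drawn from those past the fold limit or among the 3 of their list with the largest difference between affected and control fetuses, and the 3 loci nearest to Cntn2 in pattern. Members and lists were chosen with earlier results of these data known. Of 55 relatives and partners, 54 were found by symbol. Alternatives were 2 pseudocounts, 3 scalings, 2 filters and 2 folds. A marker list is not reported here.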

Additional observations from a re-analysis of the deposited data

How the results depend on the processing

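Leaving out an animal was not run, since each group has a single level per locus, and no spread between animals was obtained. No paired analysis was possible because each group has 1 value per locus and the replicate numbers of the labels appear nowhere in it. At 1.5-fold, 0 members were higher in affected (3.48% of all loci) and 0 lower in unaffected fetuses (3.03%) against control, and between the exposed groups 2 were higher and 0 lower in affected fetuses, beside 7.17% and 5.10% of all loci.

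With log2(FPKM + 1), 2 members were lower in unaffected than in control fetuses, beside 4.19% of all loci, and the median between the exposed groups was 0.32. Cntn4 and L1cam were no longer counted as lower, L1cam at -0.32 by a margin smaller than the rounding. Between the exposed groups Cntn4, at 0.26, was no longer counted. Rescaling each group to the same sum moved the median of all loci by -0.34 between unaffected and control fetuses and by 0.31 between the exposed groups. An unnamed locus held 13.9% of the sum in control, 16.7% in unaffected and 15.2% in affected fetuses. Under this scaling, 8 members (52.6% of all loci, with 2.01% higher) were lower in unaffected than in control fetuses, with a median of -0.64, and 7 were higher (49.8%) and 0 lower (4.05%) in affected than in unaffected fetuses, with a median of 0.77. Cntnap2 reversed to -0.11 in unaffected against control fetuses and Cntn6 to 0.30 between the exposed groups. After rescaling to the upper quartile, Cntn6 reversed to 0.000784. Rescaling a group shifts every locus by the same amount, so the order of the members relative to the median of all loci could not change. Centring on the median of all loci, a pseudocount of 0.1, both filters and 1.2-fold left all 6 counts within 1.5 times.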

Other observations

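Some members are neighbours in the genome. Nfasc lies 21.6 kb from Cntn2 on chromosome 1 with no named locus between them, and both genes were highest in affected and lowest in unaffected fetuses. On chromosome 6, Chl1 and Cntn6 are 760 kb apart with 0 named loci between them, and Cntn6 and Cntn4 are 814 kb apart. Their group orders differed, since Chl1 was highest in affected fetuses and Cntn6 and Cntn4 in control fetuses.

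By Euclidean distance over the 2 log2 differences from control, the 3 named loci nearest to Cntn2 were Hivep3, Slit3 and Rere. Hivep3, a zinc finger transcription factor, had 2.26 FPKM in control, 1.75 in unaffected and 3.07 in affected fetuses. Slit3, a secreted ligand of axon guidance, had 1.71, 1.34 and 2.32 FPKM, and the nuclear co-regulator Rere had 14.5, 11.3 and 20.0 FPKM. The likeness rests on 3 group values per locus, and 91 of 12569 loci lay within 0.1 of Cntn2 on the log2 scale.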
